A study of Mus musculus with 4 samples.

Results

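Mouse chromosome 4 was divided at position 115000000, and the accessible regions on either side of that boundary were compared. Peaks of the 4 libraries that shared 1 bp or more were merged into regions, every region of chromosome 4 outside 145000000 to 148000000 was kept, and a region belonged to the side on which it started (mm10). This gave 9300 regions, which was 1.66% of the 560228 in the whole genome. Of these, 4725 started before the boundary and 4575 after it. The stretch after the boundary measured 38.4 Mb. A further 1024 regions lay in the 3 Mb interval left out. The boundary was chosen from the positions of the peaks themselves, so density, width, number of libraries per region and gene content on the sides are given as descriptions, with no test.

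Accessible chromatin was mapped by ATAC-seq: the transposase Tn5 inserts adapters into exposed DNA and clusters of insertions are called as peaks. The cells were mpkCCD clone 11, a single clone of a cultured mouse line from the cortical collecting duct, grown with insulin, dexamethasone, triiodothyronine and epidermal growth factor. Confluent layers on permeable supports were changed to medium lacking serum and hormones and received 0.1 nM dDAVP, an analog of vasopressin that acts on the V2 receptor, or vehicle alone, and were harvested 30 minutes later. Each treatment had 2 libraries of 50000 cells each. Whether replicates came from separate cultures is not stated, and their spread may be technical only, which is then all that the p-values measure.

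The sources used here name no genetic modification. The lists held 205771 to 393956 peaks and vehicle replicate 1 had the most, 1.91 times the shortest list. They give positions alone, the depth is unknown, and a peak from pooled cells does not tell how many of the cells are open at that site. Gene-end peaks here are peaks within 1 kb of either outermost end of a gene. They were found in all 4 libraries at 8 of 9 genes listed for principal cells, beside 65.3% of all protein-coding genes. These 8 were Aqp2, Scnn1a, Scnn1g, Hsd11b2, Gata3, Elf3, Krt8 and Cdh1. Avpr2, which encodes the V2 receptor, had a gene-end peak in 2 libraries. Nphs1 of podocytes, Col3a1 of stroma and Ptprc of leukocytes had none, and the endothelial Pecam1 had one in 2 libraries.

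Genes are not spread evenly along mammalian chromosomes: stretches rich in genes are generally also rich in G and C and in CpG islands, while gene-poor stretches hold more late-replicating, compact chromatin. Promoters in CpG islands tend to be free of nucleosomes in most cell types, whereas promoters poor in CpG are more often open only where the gene is used. In the collecting duct, cAMP raised by vasopressin activates protein kinase A, which phosphorylates CREB, a factor that binds the CRE motif.

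A few promoter sequences are given here to show the range of CpG content, which differed between the promoters with and without a peak. They are the 250 bases before the annotated start, from RefSeq (GRCm38.p6), written 5′ to 3′ in the direction of the gene, with every CG in capitals. Stil, whose product is needed for centriole duplication, holds the promoter nearest to the boundary (plus strand, chr4:114999868-115000117). Jun encodes an AP-1 subunit (minus strand, chr4:95052223-95052472), and Wnt4 a ligand required for kidney tubule formation (plus strand, chr4:137277385-137277634). Cga, which encodes the alpha subunit of pituitary hormones (plus strand, chr4:34893529-34893778), and C1qb, a complement subunit of macrophages (minus strand, chr4:136886201-136886450), had no peak in any library.
Stil: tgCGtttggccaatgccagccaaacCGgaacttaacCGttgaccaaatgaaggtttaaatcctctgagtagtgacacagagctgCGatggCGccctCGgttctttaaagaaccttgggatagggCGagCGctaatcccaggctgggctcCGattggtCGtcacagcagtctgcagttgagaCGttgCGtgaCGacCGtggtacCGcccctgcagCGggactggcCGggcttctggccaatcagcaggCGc
Jun: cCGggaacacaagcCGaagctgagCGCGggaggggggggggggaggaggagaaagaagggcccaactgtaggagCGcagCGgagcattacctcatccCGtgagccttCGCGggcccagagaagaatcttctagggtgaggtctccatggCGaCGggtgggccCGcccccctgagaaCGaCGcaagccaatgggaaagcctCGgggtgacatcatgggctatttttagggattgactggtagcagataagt
Wnt4: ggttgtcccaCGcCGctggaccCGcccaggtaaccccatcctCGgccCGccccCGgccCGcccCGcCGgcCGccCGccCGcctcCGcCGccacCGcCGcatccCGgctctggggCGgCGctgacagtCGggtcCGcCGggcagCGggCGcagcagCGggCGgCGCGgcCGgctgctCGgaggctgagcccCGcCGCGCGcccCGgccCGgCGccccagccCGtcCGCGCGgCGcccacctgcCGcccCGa
Cga: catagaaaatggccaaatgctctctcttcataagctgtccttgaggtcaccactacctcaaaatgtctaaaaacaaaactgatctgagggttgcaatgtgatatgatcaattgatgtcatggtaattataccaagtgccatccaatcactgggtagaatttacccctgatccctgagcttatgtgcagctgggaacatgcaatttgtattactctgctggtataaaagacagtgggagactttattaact
C1qb: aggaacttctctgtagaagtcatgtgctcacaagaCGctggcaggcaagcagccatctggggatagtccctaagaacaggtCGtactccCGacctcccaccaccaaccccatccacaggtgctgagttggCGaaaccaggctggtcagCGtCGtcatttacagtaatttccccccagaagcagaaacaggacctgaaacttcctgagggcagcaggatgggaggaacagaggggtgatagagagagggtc

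These stretches held 18 CG pairs for Stil, 15 for Jun and 44 for Wnt4, against 0 for Cga and 6 for C1qb. Errfi1, an inhibitor of the epidermal growth factor receptor, is shown for the CRE in its promoter (plus strand, chr4:150854820-150855069). Here the capitals mark the CRE, which lay 51 to 44 bases before the start.
Errfi1: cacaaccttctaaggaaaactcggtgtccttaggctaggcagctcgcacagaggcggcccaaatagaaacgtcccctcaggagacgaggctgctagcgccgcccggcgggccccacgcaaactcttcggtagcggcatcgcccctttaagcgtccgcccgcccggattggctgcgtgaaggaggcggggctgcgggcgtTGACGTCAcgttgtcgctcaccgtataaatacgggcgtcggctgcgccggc

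Accessible regions were denser after the boundary. There were 41.1 regions per Mb before it and 119 per Mb after it, a ratio of 2.90. Regions covered 1.62% of the sequence before and 4.72% after. Protein-coding genes rose along with them: 618 genes started before the boundary (5.37 per Mb) and 656 after it (17.1 per Mb), a ratio of 3.18. Divided by the number of genes the sides were therefore close, with 7.65 regions per gene before and 6.97 after. The ratio of these values was 0.91, and it was 0.78 without vehicle replicate 1. It stood at 1.06 with the boundary at 120 Mb and at 1.07 with the interval left out kept, so the order of the sides in regions per gene depends on these choices. On the other 19 chromosomes (1 to 19 and X) the number of regions per gene ran from 4.40 to 79.8 with a median of 23.4, and their density from 24.8 to 489 per Mb with a median of 229. Both sides of chromosome 4 were thus below the median chromosome in density and in regions per gene. These values divide all regions of a stretch by its genes, wherever the regions lie. Regions in or within 1 kb of a gene averaged 3.15 per gene before the boundary and 4.83 after it, a region near several genes counting for each. Regions found in all 4 libraries, wherever they lie, numbered 2.19 per gene before and 1.69 after. Genes after the boundary were shorter, with a median length of 15.5 kb against 23.6 kb.

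**Figure D1:**
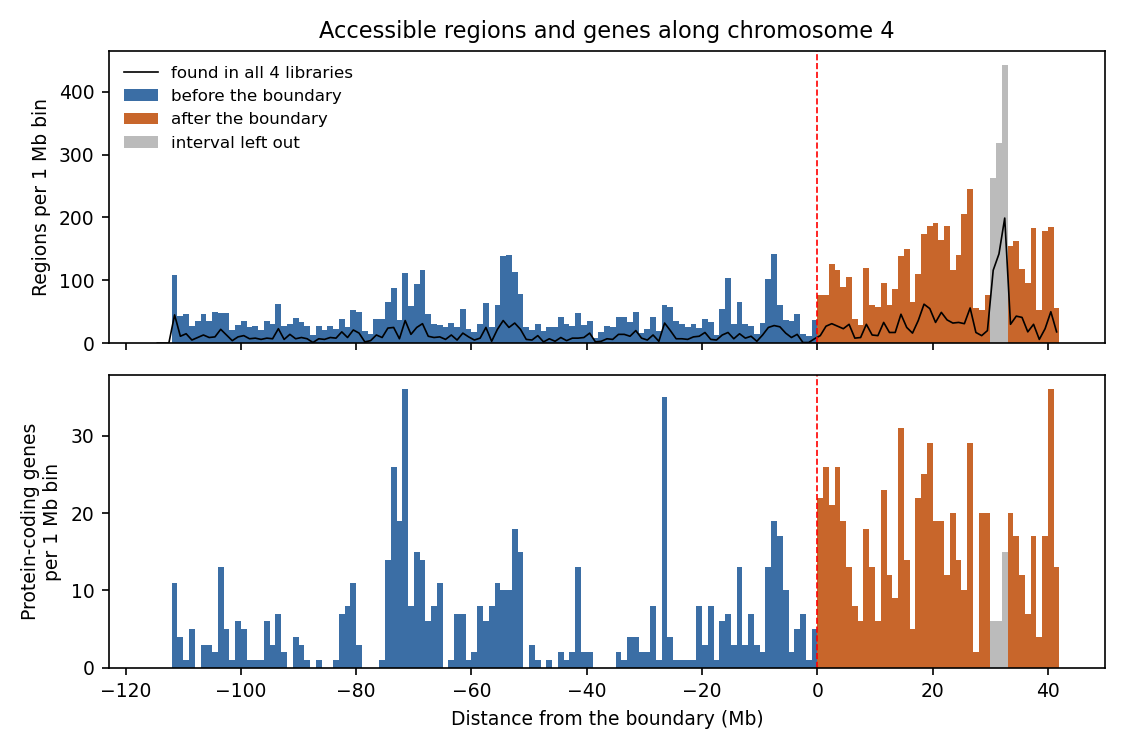
Merged regions (upper panel, bars; black line, regions found in all 4 libraries) and protein-coding gene starts (lower panel) in bins of 1 Mb along chromosome 4, against the distance of the bin's centre from the boundary in Mb. The median bin held 33.5 regions before the boundary (blue) and 117 after it (orange); grey bins are the interval left out.

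Every library showed the higher density after the boundary. Vehicle replicate 1 had 27.8 peaks per Mb before and 85.1 after, a ratio of 3.07. dDAVP replicate 1 had 23.5 and 63.7, a ratio of 2.70. Vehicle replicate 2 had 21.3 and 48.4, a ratio of 2.27, and dDAVP replicate 2 had 22.0 and 49.6, a ratio of 2.25. The mean ratio was 2.57 ± 0.39 (SD, n = 4), and the libraries with more peaks had the larger ratios. The libraries were far more alike before the boundary, where the longest list exceeded the shortest by 1.304 times, than after it, where the factor was 1.76. Over the whole libraries that factor was 1.91. Peaks per gene were 5.17, 4.38, 3.96 and 4.10 before the boundary and 4.98, 3.72, 2.83 and 2.90 after it (vehicle 1, dDAVP 1, vehicle 2, dDAVP 2, the order used throughout). In each of the 4 libraries the value per gene was lower after the boundary than before it.

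**Figure D2:**
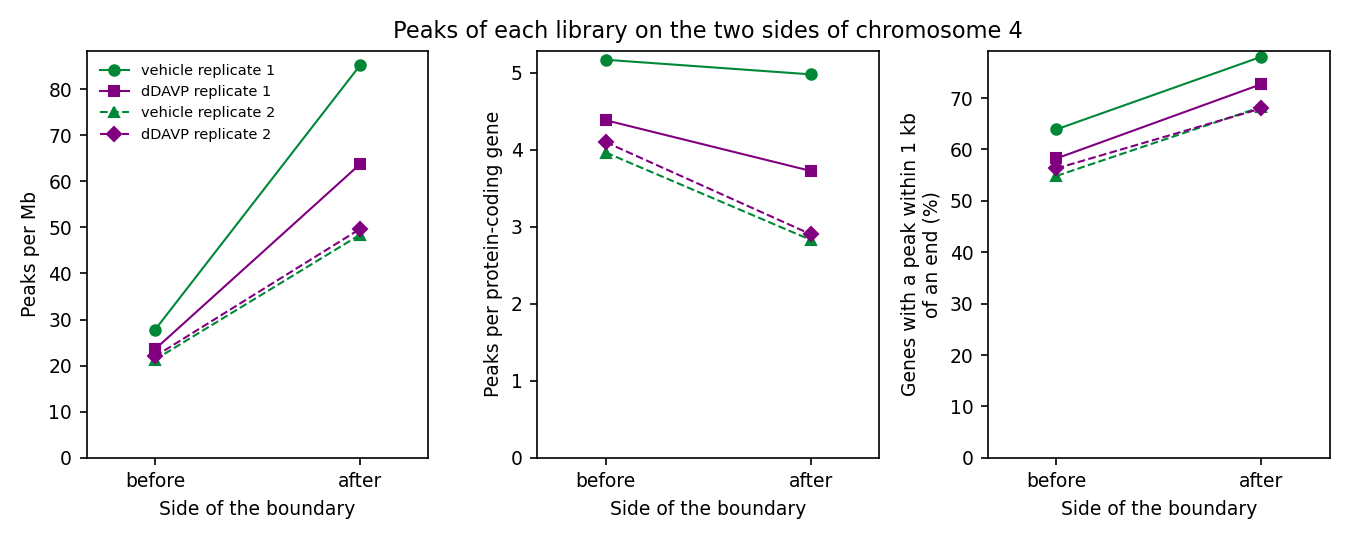
Peaks per Mb (left), peaks per protein-coding gene (middle) and percent of genes with a peak within 1 kb of an end (right) on each side of the boundary, with 1 line for each library. Density was higher after the boundary in each library, at 48.4 to 85.1 peaks per Mb against 21.3 to 27.8, while peaks per gene were lower there in each.

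The boundary is not an abrupt step. At the boundary the 10 Mb after held 1.61 times as many regions as the 10 Mb before, which ranked 23 of the 123 positions tried along the chromosome. The highest such ratio, 2.36, was at 38 Mb. With the boundary moved, the density after it exceeded the density before it in each of the alternatives tried. Of the 112 bins of 1 Mb before the boundary, 4 held 117 regions or more, the median after it. Of the 39 bins after it, 1 held 33.5 regions or fewer, the median before it. The ranges overlapped, from 9 to 142 before and from 29 to 245 after.

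The region at the boundary itself spans it. It ran from 114999604 to 115000788, was 1185 bp wide and covered the Stil promoter, whose sequence is given above, and by its start it counted as before. Its peaks measured 1019, 1167, 970 and 831 bp. The last all-library region wholly before the boundary lay at the promoter of Cmpk1, a kinase of pyrimidine nucleotides (114986422 to 114987631). The first region after it (115052619 to 115052846, 228 bp, all 4 libraries) lay 3580 bp from Tal1, a blood cell transcription factor, and the next (115062960 to 115063830, 871 bp) lay inside that gene. Tal1 lacked a gene-end peak. At the edges of the interval left out, the last region inside the rule was 144999512 to 145000446 (Vps13d, all 4 libraries) and the first was 148008550 to 148008635 (Clcn6, 1 library).

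Within 0.5 Mb of the boundary, all-library gene-end peaks were found at Trabd2b, Foxd2 and Cmpk1 before it and at Stil and Pdzk1ip1 after it. Foxd2, a forkhead factor of kidney mesenchyme, had peaks of 1991, 1191, 1284 and 1419 bp. Pdzk1ip1, a protein of the proximal tubule membrane that binds PDZK1, had peaks of 837, 598, 731 and 695 bp. Its neighbours of the Cyp4 family, enzymes that hydroxylate fatty acids, were called rarely. Cyp4x1 had a gene-end peak in 2 libraries, and Cyp4a29, Cyp4a12a, Cyp4a12b, Cyp4a30b and Cyp4a14 had none. The lens factor gene Foxe3 had one in 2 libraries.

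Gene number and region number went together within each side as well. Across the 1 Mb bins Pearson's r was 0.65 before the boundary (112 bins) and 0.51 after it (39 bins), and Spearman's rho 0.66 and 0.46. Neighbouring bins share sequence composition and all bins share the 4 libraries, so these describe the chromosome and were not tested. At like gene number the bins after the boundary still held more regions. Bins with 1 to 5 genes had a median of 31 regions before (54 bins) and 56 after (3 bins). Bins with 6 to 10 genes had 37 (23 bins) and 71.5 (6 bins), and bins with 11 to 20 genes had 66 (16 bins) and 119 (19 bins). The ranges overlapped in each of these groups, at 11 to 57 and 52 to 66, at 14 to 140 and 29 to 206, and at 29 to 142 and 53 to 191. Bins without genes, 16 in all, occurred only before the boundary and held a median of 25.5 regions.

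**Figure D3:**
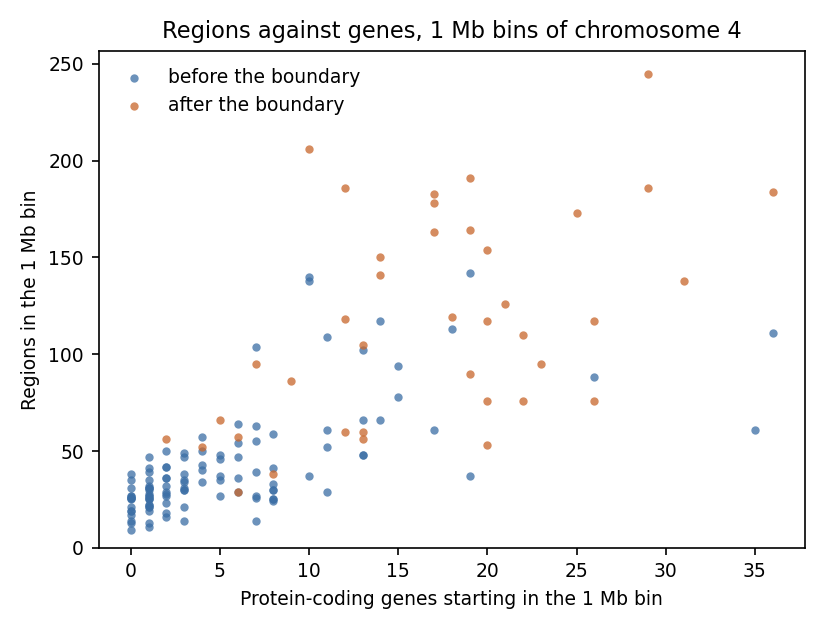
Number of merged regions against number of protein-coding gene starts in each 1 Mb bin of chromosome 4 that holds a region, before (blue) and after (orange) the boundary. Bins with 11 to 20 genes had a median of 66 regions before the boundary and 119 after it, with overlapping ranges.

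The densest bins differed in gene content. After the boundary the 3 richest bins held Epha2, an ephrin receptor of epithelia (141 to 142 Mb, 245 regions), the Padi genes for protein deiminases (140 to 141 Mb, 206 regions), and Grhl3 and Runx3 (135 to 136 Mb, 191 regions). Before it the richest bin held Glis1 and the lipoprotein receptor gene Lrp8 (107 to 108 Mb, 142 regions). The next were the bins from 60 to 62 Mb, with 138 and 140 regions, whose 20 genes are all named Mup, for the major urinary proteins that liver and glands secrete. These genes were chosen after their values were seen. The whole Mup cluster (59956804 to 62150841) held 289 regions, or 132 per Mb, of which 64 were in all 4 libraries. Of its 24 genes, 1 had a gene-end peak in each library, as had 65.3% of all protein-coding genes. Many of the Mup genes are near-identical copies, and reads from such copies cannot be assigned to a copy with certainty. How well reads can be placed among these genes was not examined.

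The excess after the boundary was not the same in all kinds of sequence. Within 1 kb of gene ends there were 200 regions per Mb of such sequence before and 312 after, a ratio of 1.56. Elsewhere inside genes there were 36.3 and 122, a ratio of 3.36. Outside genes but within 10 kb of one the values were 58.2 and 118, a ratio of 2.03, and farther away 36.8 and 76.6, a ratio of 2.08. On the other chromosomes the densities were 423, 256, 254 and 180 per Mb in the same order, above both sides of chromosome 4 in each kind. Among regions found in all 4 libraries the ratio of after to before was 1.25 at gene ends, 2.40 inside genes, 2.21 outside genes but within 10 kb and 1.49 farther away.

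**Figure D4:**
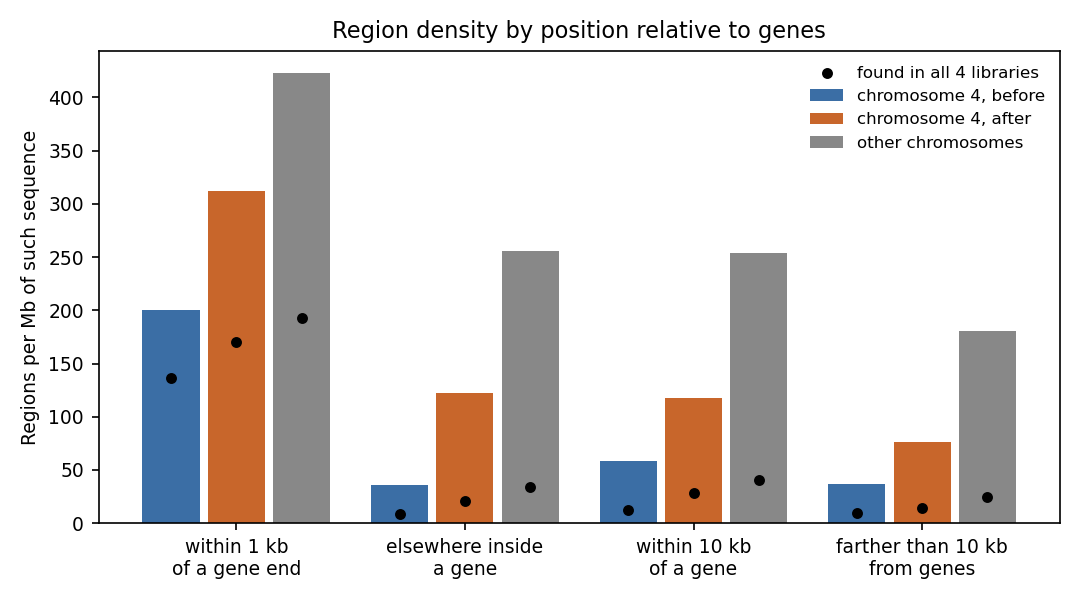
Merged regions per Mb of sequence of each kind (bars; dots, regions found in all 4 libraries) before and after the boundary on chromosome 4 and on the other chromosomes. The ratio of after to before was largest elsewhere inside a gene, at 36.3 and 122 per Mb, and smallest at gene ends, at 200 and 312 per Mb.

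Before the boundary most regions lay in intergenic sequence. Of the regions before the boundary 52.0% were farther than 10 kb from any protein-coding gene and 30.1% inside a gene away from its ends. After it these shares were 19.8% and 49.7%. Regions at gene ends were 9.61% of those before and 16.2% of those after, beside 5.65% on the other chromosomes.

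Over all regions the widths hardly differed between the sides, but at each number of libraries the median was larger after the boundary. The median region was 242 bp wide before and 248 bp after. In the single libraries the median peak was 2, 14, 29 and 47 bp wider after the boundary. Width grew with the number of libraries: regions in 1, 2, 3 and 4 libraries had medians of 127, 238, 345 and 724 bp before the boundary. After it these were 148.5, 284, 376 and 829 bp, and in the whole genome 153, 313, 456 and 770 bp. The narrow regions of a single library were 45.0% of those before and 53.9% of those after, which lowers the overall median after the boundary.

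The widest regions in all 4 libraries lay mostly far from genes before the boundary and mostly at or inside genes after it. Before the boundary they included 3 next to the assembly gap at the centromeric end, at 3080466 to 3084461 (3996 bp), 3050038 to 3053331 (3294 bp) and 3223627 to 3226889 (3263 bp), all more than 10 kb from a gene. Another lay among the Mup genes, 10418 bp from Mup18 (61684550 to 61688544, 3995 bp), and the remaining one lay over an end of Jun (95050027 to 95053664, 3638 bp). After it they included regions at an end of Ahdc1 (133011169 to 133013952, 2784 bp) and of Klhl21, an adaptor of a ubiquitin ligase (152008618 to 152010946, 2329 bp). Others lay inside Arid1a, which encodes a subunit of the BAF remodelling complex (133752347 to 133754871, 2525 bp), and inside Serinc2 (130273683 to 130275926, 2244 bp). The single widest region after the boundary, however, also lay more than 10 kb from a gene.

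Regions were shared by all 4 libraries somewhat more often before the boundary. Of the regions before it 1353 were in all 4 (28.6%, 95% exact binomial interval 27.3 to 29.9) and of those after it 1108 (24.2%, 23.0 to 25.5), beside 15.7% of all regions in the genome. The intervals cover counting error only. Regions of a single library made up 45.0% before and 53.9% after, and 53.1% in the genome. Vehicle replicate 1, the longest list, supplied 892 of the 2127 single-library regions before and 1375 of the 2466 after. Without that library, 37.1% of the regions before and 36.5% of those after were in all 3 others, which is nearly level. With the interval left out kept, 28.0% of those after the boundary were in all 4.

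Genes were open less often before the boundary. All 4 libraries had a gene-end peak at 323 of 618 genes before (52.3%, interval 48.2 to 56.3) and at 421 of 656 after (64.2%, 60.4 to 67.9). The background over 21775 protein-coding genes was 65.3%. Such genes are called open here, which need not mean an accessible promoter, since the peak may lie at the far end or at a neighbour. No library had such a peak at 207 genes before (33.5%) and 124 after (18.9%), against 18.8% in the genome. With a peak anywhere in the gene counted, the shares in all 4 libraries were 66.7% and 73.9%, beside 77.5% in the genome. The genes after the boundary thus lay near the background in both counts and those before it below. At the open genes the widest gene-end peak was alike, with a median of 941.75 bp before and 951 bp after.

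Families of clustered genes that other tissues use were largely without gene-end peaks. Genes whose symbols begin with Olfr, Ifn, Mup, Skint or Vmn, or with Cyp4 or Padi, numbered 66 before the boundary and 30 after it. All 4 libraries had a gene-end peak at 2 of the 66 and 4 of the 30, and elsewhere in the genome at 82 of 1452 (5.65%). Before the boundary none of the 11 Olfr genes for odorant receptors or the 11 Skint genes of the immunoglobulin superfamily had one, and of the 18 Ifn genes, mostly type I interferons, 1 had, Ifnz. It stands in a run of 15 adjacent genes (88754868 to 88808380), of which the other 14 have Gm symbols that the letters did not match. All 15 had a gene-end peak in each library, with mean widths of 489 to 1532 bp, and 18 of the 20 regions of the run were in all 4 libraries. The genes stand so close that neighbours can share a peak, and the run was singled out after its values were seen. Whether the Gm genes are copies of Ifnz, and whether reads can be placed among them, was not examined. The Ifn count thus rests on symbols alone. After the boundary none of the 13 Olfr or 10 Cyp4 genes had one, while 3 of the 5 Padi genes had. The symbols were matched by their first letters, so the single Ifn gene after the boundary, Ifnlr1, encodes a receptor. At the other end were genes that every cell uses, such as Rps20 and Rps6 of the ribosome and Ndufb6 of respiratory complex I. These were open in all 4 libraries at 8 of 8 before and 11 of 12 after, and at 382 of 407 elsewhere. The 12 include Rps6ka1, a signalling kinase gene that the letters Rps matched. The gene of these 12 that was not open, the translation factor Eif4g3, had no peak at its outermost ends but had one in all 4 libraries over an internal promoter.

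Listed kidney genes lay mostly after the boundary. Of the 24 genes in a list of kidney tubule and collecting duct genes, 5 were before it, 17 after it and 2 on neither stretch. Gene-end peaks in all 4 libraries were found at 1 of the 5 and at 12 of the 17, against the background of 65.3%. Wnt4 had peaks of 1342, 1331, 1286 and 1261 bp at its promoter, a spread of 38.0 bp (SD) around 1305 bp. Slc6a9, a glycine transporter, had 1846, 1978, 1861 and 1896 bp at the same kind of site. Kcnab2, a potassium channel subunit, averaged 1122 ± 116 bp (SD, n = 4). Cyp4a14 had none, and the alkaline phosphatase gene Alpl and the tight junction gene Cldn19 had a gene-end peak in 1 library, vehicle replicate 1.

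Before the boundary, the glucose cotransporter gene Slc5a9 was the member of this list with a peak in all 4 libraries, at 164, 309, 235 and 211 bp. Aqp3, the water channel of the basolateral membrane of principal cells, had gene-end peaks of 324 and 229 bp in vehicle replicate 1 and dDAVP replicate 1 and none in the others. Its promoter window was covered in vehicle replicate 1 alone, while 2 regions in or near the gene were found in all 4 libraries. Aqp7, a glycerol channel, had a gene-end peak in 1 library. The natriuretic peptide receptor gene Npr2 had none, although 2 regions within it were found in all 4 libraries.

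The genes of cAMP, kinase and immediate-early responses were equally often open on the sides, at 8 of 10 before and 8 of 10 after. Of all genes of these sides 52.3% and 64.2% were open, beside 65.3% in the genome. Jun had the widest gene-end peaks of the list, at 3038, 2269, 2489 and 2273 bp. The others before the boundary were led by Klf4, a zinc finger factor (2056 ± 514 bp), Nfib, a nuclear factor I gene (1933 ± 87.7 bp), and Bach2, a partner of Maf proteins (1701 ± 49.5 bp). After it the widest were Gnb1, a G protein beta subunit (1567 ± 42.2 bp), the kinase gene Rps6ka1 (1256 ± 121 bp), the clock gene Per3 (1240 ± 111 bp) and Errfi1 (1175 ± 449 bp). The Errfi1 promoter shown above carried peaks of 899, 1170, 821 and 1809 bp, so the SD rests mainly on dDAVP replicate 2. Pde4b, which degrades cAMP, had gene-end peaks in 2 libraries, and a peak over 1 internal promoter in 3. Nfia had no gene-end peak, nor had Mknk1 or Pik3cd, but the latter pair had all-library peaks over internal promoters.

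Epithelial genes were open in all 4 libraries at 4 of 6 before and 12 of 14 after. The shares over all genes were 52.3% before, 64.2% after and 65.3% in the genome, and the list is small. Before the boundary these were Whrn, a scaffold of stereocilia (1170 ± 413 bp), Tln1, which links integrins to actin (1055 ± 64.6 bp), Epb41l4b (1029 ± 91.5 bp) and the junction scaffold Mpdz (795 ± 84.5 bp). After it they included Capzb, which caps actin filaments (1447 ± 59.1 bp), and Epha2 (1429 ± 265 bp). Grhl3, an epithelial transcription factor, had no gene-end peak, but 11 regions lay in or near it and 1 of these was in all 4 libraries. Pdpn, a glycoprotein of podocytes and alveolar cells, had no region at all. Cdh17, the cadherin of liver and intestine, and the phosphatase gene Ptpn3 had no gene-end peak, though Ptpn3 had peaks of 655, 617, 724 and 567 bp over an internal promoter.

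Cell cycle genes were open at 9 of 10 on either side, beside 52.3% of all genes before, 64.2% after and 65.3% in the genome. The widest peaks before the boundary were at Ccne2, cyclin E2 (1931 ± 106 bp), at the kinase inhibitor genes Cdkn2c (1811 ± 254 bp) and Cdkn2a (1642 ± 149 bp), and at the deubiquitinase gene Usp1 (1624 ± 64.6 bp). After it they were at the histone deacetylase gene Hdac1 (2092 ± 103 bp), a peak shared with the end of its neighbour Marcksl1, and at Cdc20 (1415 ± 224 bp), Mycl (1111 ± 44.5 bp) and Arid1a (1003 ± 371 bp). Orc1, of the replication origin complex, lacked a gene-end peak and had one in all 4 libraries over an internal promoter.

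Genes of other lineages were called least often. Gene-end peaks in all 4 libraries were found at 2 of 15 before and 1 of 9 after. Among all genes the shares were 52.3% and 64.2%, and 65.3% in the genome. The exceptions were Foxd3, a neural crest factor, with peaks of uneven width (1221 ± 927 bp), the endotoxin receptor gene Tlr4 (913 ± 336 bp), and Padi4 (433 ± 77.9 bp). None was found for Gabrr1, Cga, the chemokine gene Ccl21a or the muscle kinase gene Musk before the boundary, nor for Tal1, the granulocyte receptor gene Csf3r, the T cell kinase gene Lck or C1qb after it. In these 5 lists the counts were thus level for signalling and for cell cycle genes, and the kidney list held the widest gap. The lists are choices of members, and the counts are given as descriptions.

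Promoters after the boundary were richer in CpG, and a larger share of them was open, in both classes of CpG content. Whether CpG content accounts for the difference between the sides was not tested. RefSeq gave 618 promoter windows (250 bases before to 50 after a start) for 477 genes before the boundary and 719 windows for 567 genes after it. The sides held 618 and 656 protein-coding genes, so the windows missed more of those before. A peak overlapped the window in all 4 libraries at 46.6% before and 57.4% after, and at 55.5% of the 21036 windows of the genome. The CpG ratio, which is the number of CG pairs over that predicted from the C and G content, had a median of 0.54 before, 0.67 after and 0.57 in the genome. The median GC content was 56.2%, 60.3% and 56.7%. Windows with a ratio of 0.6 or more were open in all 4 libraries at 82.5% before, 85.9% after and 88.8% in the genome. Below 0.6 these shares were 16.9%, 22.1% and 24.6%.

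**Figure D5:**
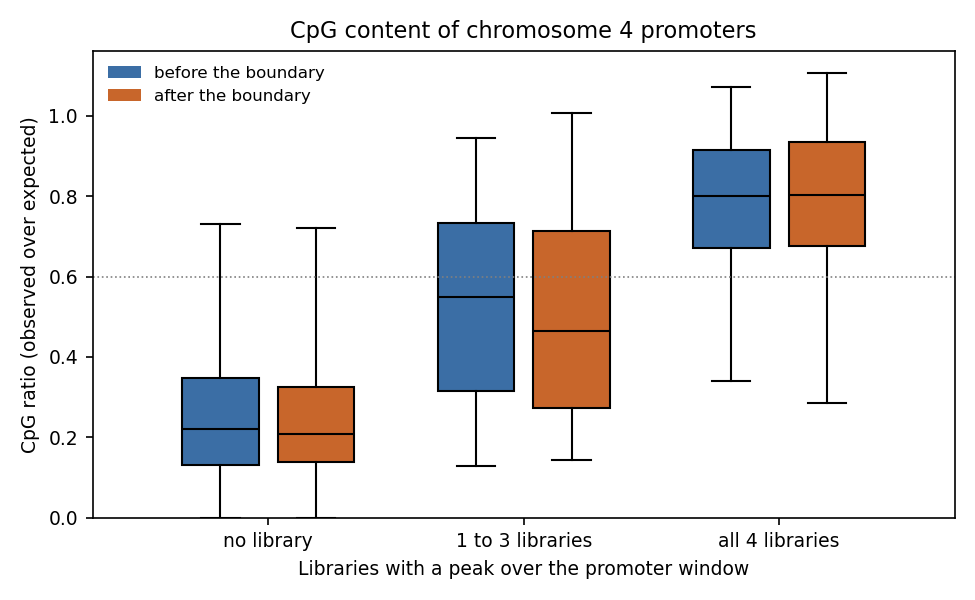
CpG ratio of RefSeq promoter windows on chromosome 4 by the number of libraries with a peak over them, before (blue) and after (orange) the boundary; boxes span the quartiles with the median as a line, whiskers reach the 5th and 95th percentiles, and the dotted line is 0.6. The median was 0.80 on either side with a peak in all 4 libraries, and 0.22 before and 0.21 after with none.

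Open promoters had the same CpG ratio on either side, with a median of 0.80, and those without a peak had 0.22 and 0.21. The sequences above show this range, with ratios over the whole window of 0.94 for Stil, 0.98 for Wnt4 and 0.59 for Jun, against 0.08 for Cga and 0.25 for C1qb. Pdzk1ip1 went the other way, with a ratio of 0.13 and a promoter peak in all 4 libraries.

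Motifs were searched on both strands of the windows. The GC box (GGGCGG), which Sp1 binds, was in 47.9% of the windows before, 56.3% after and 46.7% in the genome. The TATA box (TATAAA) was in 12.5%, 7.51% and 12.7%, and the CCAAT box (CCAAT) in 40.1%, 36.3% and 38.5%. The CRE (TGACGTCA) was in 12 of 618 windows before and 12 of 719 after, beside 2.26% in the genome. Of these windows 10 before, including Jak1, Cdkn2b and Osbpl9, and 11 after, including Cdc42, Epha2, Dvl1 and Errfi1, had a peak in all 4 libraries. In the genome that was so for 392 of 475. A motif match is a description of the letters and not a binding site.

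MicroRNA genes were fewer before the boundary, with 20 hairpins against 29. Each library had a peak within 1 kb at 1 of the 20 and at 8 of the 29, beside 27.7% of 1005 hairpins in the genome. Within 10 kb the counts were 4 and 23, beside 74.1% in the genome, so the count after the boundary was near the background and that before it below. The cluster of miR-200b, miR-200a and miR-429, microRNAs that repress the Zeb factors and mark epithelia, lies near the end of the chromosome. Its mature 3p forms are shown from RefSeq with the seed, bases 2 to 8, in capitals, since miR-200b and miR-429 share a seed from which miR-200a differs.
mmu-miR-200b-3p: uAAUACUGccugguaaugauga
mmu-miR-429-3p: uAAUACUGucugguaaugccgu
mmu-miR-200a-3p: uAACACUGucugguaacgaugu

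A region in all 4 libraries lay 3214 bp upstream of the miR-200b hairpin (156058964 to 156060377, 1414 bp), with peaks of 1264, 1097, 1267 and 1414 bp. The region over the miR-429 hairpin was narrow (139 bp) and in 2 libraries, vehicle replicate 1 and dDAVP replicate 1. The hairpin of miR-34a, a target of p53, had an all-library region of 2182 bp lying 6136 bp upstream. The miR-30e and miR-30c-1 hairpins, inside Nfyc, had no peak within 10 kb. Before the boundary the hairpin with a peak in all 4 libraries was that of miR-207, inside Dnaja1, under a region of 1337 bp. These microRNAs were chosen after their values were seen.

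The differences between dDAVP and vehicle were smaller than the spread of the vehicle replicates in peak density and in the log2 ratio. Peaks per Mb before the boundary were 22.8 ± 1.08 with dDAVP and 24.5 ± 4.57 with vehicle (SD, n = 2 each, exact two-sided permutation p = 1). After it they were 56.7 ± 9.94 and 66.8 ± 26.0 (exact permutation p = 1). The log2 ratio of after to before was 1.304 ± 0.19 with dDAVP and 1.40 ± 0.31 with vehicle, a difference of -0.10 (exact permutation p = 0.667), and the values of the groups overlapped. The smallest p that 2 against 2 libraries allow is 0.333, so no test could pass a threshold of 0.05. Over the 10 quantities tested each p adjusted by Benjamini-Hochberg was 1. Without vehicle replicate 1 the signs of these differences turned: densities were then higher with dDAVP by 1.49 peaks per Mb before and 8.28 after, and the log2 ratio by 0.12. Without dDAVP replicate 2 the log2 ratio was higher with dDAVP by 0.04. The density differences also turned with each list held to the widest peaks, as many as the shortest list has, to 1.32 before and 1.03 after, and as a percentage of the peaks of the library, to 0.083 and 0.019.

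Few regions had a pattern that matched the treatment. Regions called in each dDAVP library but in no vehicle library numbered 88 before the boundary (1.86%) and 68 after it (1.49%), beside 1.61% of all regions in the genome. The reverse pattern was found for 113 (2.39%) and 87 (1.90%), beside 3.35%. The shares were near or below the background. Pairs that mix the treatments, meaning 1 vehicle and 1 dDAVP library and no other, held from 69 to 232 regions each before the boundary and from 61 to 264 after it. A pattern that matches the treatment was thus no rarer or more common than such pairs. With each list held to the widest peaks, as many as the shortest list has, the dDAVP counts were 85 before and 60 after and the vehicle counts 59 and 56, so the order of the treatments turned. The widest regions of the first kind lay 18156 bp from Mms22l (735 bp), 587622 bp from 1700009N14Rik (807 bp), and inside Camta1 (776 bp) and Nphp4 (761 bp). Those of the second lay inside Prdm13 (1530 bp) and Ski (988 bp), at an end of Ajap1 (1093 bp) and 320748 bp from Gm11232 (739 bp). The vehicle peaks at Prdm13 measured 1530 and 103 bp and those at Ski 988 and 169 bp, so the widths come mostly from vehicle replicate 1. Leaving out any library loosens the pattern, and the counts then rose to between 149 and 673 for dDAVP and between 165 and 1473 for vehicle.

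Chromosome 4 was compared with the similarly divided chromosomes 13 and 2 to show where it differs. After 64 Mb chromosome 13 held 42.7 regions per Mb and 7.47 per gene, close to the first stretch of chromosome 4, whereas before 64 Mb it held 194 per Mb and 24.4 per gene. After 150 Mb chromosome 2 held 486 per Mb and 34.98 per gene, against 174 and 19.5 before. The sides of those chromosomes thus differed in regions per gene by more than the sides of chromosome 4 did, where the values were 7.65 and 6.97. No test was made of these differences.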

How the data were processed

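Peak lists of 4 ATAC-seq libraries were used, from 50-base paired reads per the labels' protocols. MACS2, Bowtie2, cutadapt, Picard, SAMtools and bedtools are named without versions or settings in the submitters' processing notes, with mm10 as the build. For the peak threshold, duplicate handling and a shift of reads to the cut site, settings are not given. The deposited values are peak starts and ends, with no score or depth, so a missing peak is a site not called, and no interval that needs depth is given.

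Peaks sharing 1 bp or more were merged, in 1-based positions. Lengths ran from the chromosome's start to the end of the last region, less the 3 Mb left out. Gene positions came from RefSeq GRCm38.p6, which gives no strand in that table, so both ends of each gene were used. In it 27 protein-coding genes listed on chromosome 4 start in the assembly gap before 3 Mb. These are positions on scaffolds, no peak of chromosome 4 starts there, and such genes (108 over all chromosomes) were left out after seeing the data.

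dDAVP and vehicle were compared by exact two-sided permutation tests with Benjamini-Hochberg adjustment, and shares have exact binomial intervals. By the rule for named genes, the text gives for each of 5 lists and side up to 4 genes with the widest gene-end peaks in all 4 libraries and up to 4 with none, the genes within 0.5 Mb of the boundary, the 5 widest all-library regions of each side and the 2 widest of each treatment pattern. Further genes, including other list members, were named after their values were seen. A few genes chosen by this rule are not reported here. The members, boundary and lists were chosen with earlier results of these data known. Merging was tested on simulated data, where 100% of 8080 regions received the right libraries. Python 3.11.15, pandas 2.3.3, NumPy 2.4.6, SciPy 1.17.1 and matplotlib 3.10.9 were used.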

Additional observations from a re-analysis of the deposited data

How the results depend on the processing

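Of the 134 recomputed values, 84 were classed as kept, 42 as moved and 8 as turned in sign. Density ratios, regions per gene and widths were judged against the SD of the libraries, and shares against their exact binomial interval. Treatment-only counts were judged by the size of the change alone, and treatment differences by their sign. The classes thus do not measure the same thing for each quantity. Presence in all libraries is also a looser demand when 1 library is left out. The ratio of region densities, after over before the boundary, was 2.90; it was 3.29 with the interval left out kept and ranged from 2.49 (without vehicle replicate 1) to 2.99 when 1 library was left out. The percentage of regions in all libraries fell from 28.6 to 16.3 before and from 24.2 to 14.9 after the boundary when presence needed an overlap of at least 0.5 of the region's length; after the boundary it was 27.02 with the widest peaks of each library and 28.0 with the interval left out kept. Leaving out 1 library gave 33.9 to 37.1 before and 27.7 to 36.5 after. Genes open at an end in all libraries (52.3% before, 64.2% after) were 57.9% and 71.95% with windows of 2.5 kb, 66.7% and 73.9% over whole genes, and 46.6% and 57.4% with RefSeq promoter windows, an alternative added after seeing the data; with windows of 0.5 kb the share after was 59.5%. Leaving out 1 library gave 52.4 to 53.9% and 64.5 to 65.9%. Regions per gene, after over before, went from 0.91 to 1.06 with the boundary at 120 Mb and 1.07 with the interval left out kept, and ranged from 0.78 to 0.94 with 1 library left out. The cause of these shifts was not tested.

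Treatment-only counts rose by construction with fewer libraries: 186 to 565 (dDAVP, before), 149 to 673 (dDAVP, after), 219 to 1014 (vehicle, before) and 165 to 1473 (vehicle, after). With the widest peaks of each library the vehicle counts were 59 before and 56 after, and the dDAVP counts 85 and 60. The difference of dDAVP and vehicle in peaks per Mb was -1.75 before and -10.1 after; it was 1.32 and 1.03 with the widest peaks, 0.083 and 0.019 percentage points as a share of the library's peaks, and ran from -4.98 to 1.49 and from -28.5 to 8.28 with 1 library left out. The log2 ratio's difference ran from -0.31 to 0.12, and was 0.12 without vehicle replicate 1 and 0.04 without dDAVP replicate 2. The replicate block gave the same mean differences, from -4.22 and 0.72 before, -21.4 and 1.25 after, and -0.18 and -0.01 on the log2 ratio, in replicates 1 and 2. Replicate numbers are not said to mark a shared culture or day. The differences between replicates 1 and 2 of vehicle and those of dDAVP correlated at r = 0.36 over 151 bins. Replicate 1 had the longer list in both treatments, so pairing and list length cannot be told apart in this value. Peak lists without depth limit all counts of presence.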
